A study of Mus musculus with 12 samples.

Results

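The gene set covers signalling proteins that act directly behind immunoreceptors: the kinases Btk, Syk, Fgr and Fes, the adaptors Blnk and Pik3ap1, the lipase Plcg2 and the exchange factor Vav1. Genes were chosen by name, with earlier results of these data known. Each was read from array features that the platform annotation assigns to its symbol alone. Of 9 named genes, 8 had such a feature on both array designs, out of 13356 genes measured on both; the 1 other gene had none and was not analysed here. The 8 genes had 15 features on the Mouse Genome 430 2.0 arrays and 8 on the Mouse Exon 1.0 ST arrays.

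The study profiled PUER cells in search of targets of PU.1, a transcription factor of myeloid and B cells. PUER is a mouse line of early myeloid cells without a working PU.1 gene, to which a PU.1-estrogen receptor fusion protein was added that becomes active with 4-hydroxytamoxifen (OHT). All cells grew in medium with serum, puromycin and 5 ng/ml interleukin-3 (IL-3). The 4 groups were uninduced cells (0 h) and cells 24 h after 100 nM OHT, each on both designs, with 3 arrays per group. All arrays come from 1 line, and the labels do not say whether the 3 arrays of a group are separate cultures, so p-values measure the spread between arrays, which may be technical. The 0 h groups serve as the control, and no group had 24 h of culture without OHT.

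Immunoreceptors have no kinase activity of their own. SRC-family kinases phosphorylate tyrosines of their signalling chains, SYK docks there, and SYK then phosphorylates adaptors such as BLNK, which bring BTK and phospholipase C gamma 2 together at the membrane. The lipase releases the messengers that raise calcium and activate protein kinase C, VAV1 switches on RAC-type GTPases, and the BCAP adaptor encoded by Pik3ap1 recruits phosphoinositide 3-kinase. The chain is best known from B cells and also serves Fc receptors and integrins of macrophages.

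On the 2 designs the labelled conditions ran in opposite directions. Across the 13356 genes on both, the log2 changes of 24 h minus 0 h correlated at r = -0.86 (genes are not independent replicates), and of 3770 genes called on both designs 3713 had opposite signs. Which design carries the direction of the culture is not settled by these values, so every direction below is that of the array labels, and exchanging the exon labels turns the sign of each exon change. On the 430 arrays labelled 24 h all 6 macrophage markers were called higher, and 3 of 4 progenitor markers (Kit, Gfi1 and Myb) lower. On the exon arrays labelled 24 h all 6 macrophage markers were called lower and the same 3 progenitor markers higher. Of all genes 26.0% were called higher and 26.1% lower on the 430 arrays, and 19.3% and 10.8% on the exon arrays. The macrophage marker Fcgr1 changed by only 0.29 and -0.36 on the 2 designs. The other progenitor marker, Cd34, had a log2 level of 3.51 and 3.64 on the 430 arrays at 0 h and 24 h, and of 3.76 and 3.67 on the exon arrays. Arrays of a group correlated at 0.997 or more on the 430 design and 0.985 or more on the exon design.

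The promoters of 4 of the genes are shown because the cells differ in PU.1 activity. PU.1 favours purine-rich sites with GAGGAA at the core, and the windows are Btk and Pik3ap1 as genes that moved together, Blnk as the gene with the largest change and Vav1 as the gene that moved against them. Each window runs from 250 bases before to 50 after the gene start, per RefSeq, 5′ to 3′ on the gene's strand, with GAGGAA or its reverse complement TTCCTC in capitals.
Blnk, GRCm38.p6 chr19:40994172-40994471, minus strand: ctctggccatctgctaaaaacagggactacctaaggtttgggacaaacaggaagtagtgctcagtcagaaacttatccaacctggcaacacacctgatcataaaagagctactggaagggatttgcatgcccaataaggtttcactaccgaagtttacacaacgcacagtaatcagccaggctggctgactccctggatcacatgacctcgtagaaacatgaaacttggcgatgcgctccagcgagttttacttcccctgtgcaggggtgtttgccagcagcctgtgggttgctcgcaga
Btk, GRCm38.p6 chrX:134583091-134583390, minus strand: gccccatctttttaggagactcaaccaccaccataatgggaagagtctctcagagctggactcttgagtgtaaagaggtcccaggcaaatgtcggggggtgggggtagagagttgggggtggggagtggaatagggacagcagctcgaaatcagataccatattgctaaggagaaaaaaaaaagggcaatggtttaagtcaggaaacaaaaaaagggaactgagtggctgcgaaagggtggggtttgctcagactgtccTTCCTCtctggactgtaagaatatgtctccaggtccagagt
Pik3ap1, GRCm38.p6 chr19:41385053-41385352, minus strand: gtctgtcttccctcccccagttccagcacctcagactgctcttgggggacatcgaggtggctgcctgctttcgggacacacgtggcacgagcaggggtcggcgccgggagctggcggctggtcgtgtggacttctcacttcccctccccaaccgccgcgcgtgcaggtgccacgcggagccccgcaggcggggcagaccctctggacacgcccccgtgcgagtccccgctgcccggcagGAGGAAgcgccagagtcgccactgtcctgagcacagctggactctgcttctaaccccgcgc
Vav1, GRCm38.p6 chr17:57278850-57279149, plus strand: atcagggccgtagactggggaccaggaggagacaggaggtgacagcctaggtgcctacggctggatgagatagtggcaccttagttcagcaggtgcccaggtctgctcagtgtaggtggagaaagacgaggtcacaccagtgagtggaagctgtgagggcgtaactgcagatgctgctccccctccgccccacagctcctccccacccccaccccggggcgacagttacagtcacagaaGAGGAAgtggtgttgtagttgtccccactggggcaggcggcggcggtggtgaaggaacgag

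The 8 genes had 9 such windows, since Syk has 2, and GAGGAA on either strand stood in 6 of them, those of Btk, Fgr, Vav1, Pik3ap1, Fes and 1 of Syk. Among all 32851 mouse windows of this length 28.3% held it. The match began 11 bases before the start in Vav1 and in Pik3ap1, and 9 bases after it in Btk, where it lies on the reverse strand. The longer GAGGAAGT, which contains GAGGAA, stood in the Vav1 window alone among these, against 3.2% of all windows. Neither the Blnk nor the Plcg2 window held either string. A match is a string of letters and no measurement of binding. Other forms of the site were not searched, so a window without a match may still hold one.

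The comparison of arrays labelled 24 h with those labelled 0 h asks which of these genes differ between uninduced cells and cells 24 h after OHT. PU.1 activation, OHT itself and 24 h more of culture come together in it and cannot be told apart. On the 430 arrays, taking the signals as they stand, Blnk was 33.5-fold and Btk 5.18-fold higher at 24 h, and Pik3ap1 was 2.11-fold, Plcg2 1.68-fold, Syk 1.44-fold and Fgr 1.37-fold higher. Vav1 was 1.42-fold lower, and the 95% interval of Fes included 0. On the exon arrays Blnk was 9.30-fold, Btk 5.29-fold, Plcg2 1.85-fold, Pik3ap1 1.73-fold and Fes 1.35-fold lower at 24 h as labelled.

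In counts, 6 of the 8 genes were called higher on the 430 arrays, where 26.0% of all 18193 genes were, and 1 was called lower, against 26.1%. The genes were chosen with earlier results of these data known, so an excess over such shares is no test of the set. A call is an adjusted p under 0.05 in limma with Benjamini-Hochberg adjustment over all features of the design, and a gene stands for its brightest feature. On the exon arrays 5 of 8 were called lower, against 10.8% of 14807 genes, and 0 higher, against 19.3%; at an unadjusted p under 0.05 the limma counts were 6 and 1. The median log2 change of the 8 genes was 0.64 on the 430 arrays, where it was 0.06 over all genes, and -0.66 on the exon arrays, where it was 0.01. Blnk, Btk, Plcg2 and Pik3ap1 were called higher on the 430 arrays and lower on the exon arrays, which 9.54% of all genes on both designs were. With a log2 change of at least 1 also required, 3 of 8 were called on the 430 arrays, against 9.76% of all genes, and 2 of 8 on the exon arrays, against 8.66%. The groups did not overlap for 7 genes on the 430 arrays (6 higher, where 32.0% of all genes were, and 1 lower, 29.0%) and for 6 on the exon arrays (5 lower, 19.6%, and 1 higher, 27.6%).

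**Figure D1:**
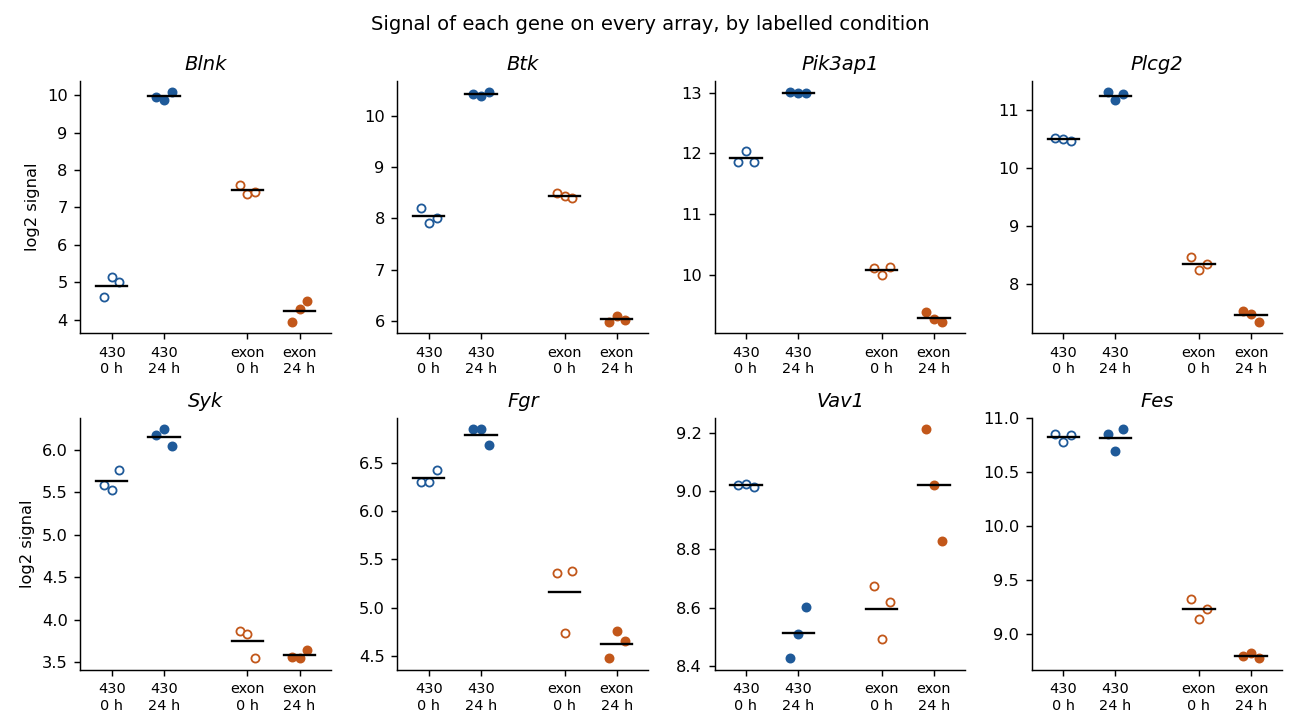
Log2 signal of each gene on every array (y axis; scales differ between panels) for the 4 labelled groups; open points are 0 h, filled points 24 h, and bars are means of 3 arrays. Blnk and Btk separate by more than 2 log2 units on both designs in opposite directions, whereas the Fes groups overlap on the 430 arrays and the Syk and Fgr groups on the exon arrays.

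Blnk encodes the adaptor BLNK (SLP-65), a scaffold that SYK phosphorylates. Its 430 probe set (1451780_at) read 4.59, 5.13 and 5.00 log2 units at 0 h and 9.96, 9.89 and 10.07 at 24 h. All 3 arrays labelled 24 h lay above all 3 labelled 0 h, and the lower group spread more (SD 0.279 against 0.0951, n = 3). The mean of that lower group, 4.91, is under the design's median feature level of 5.84, and no detection calls were used, so the Blnk changes may understate the difference. The log2 change was 5.07 ± 0.13 (SE; limma adjusted p = 1.32e-08), which ranked 41 of 18193 genes from the highest. On the exon arrays Blnk (transcript cluster 6873111) read 7.59, 7.37 and 7.41 at 0 h and 3.95, 4.28 and 4.49 at 24 h. There the 0 h arrays were the high ones, again without overlap, and the change was -3.22 ± 0.156 (limma adjusted p = 0.000103), which ranked 71 of 14807 genes from the lowest. The low group's mean of 4.24 is again under the median feature level, 5.40 on this design.

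Pik3ap1 encodes BCAP, an adaptor that recruits phosphoinositide 3-kinase and also acts behind Toll-like receptors. Its brightest 430 probe set (1429831_at) read 11.87, 12.04 and 11.85 at 0 h and 13.01, 13.00 and 13.00 at 24 h. The 24 h arrays were close together and above every 0 h array, and the change was 1.08 ± 0.0718 (limma adjusted p = 3.43e-06). The gene's other probe set (1421285_at) changed by 0.54 ± 0.064 (limma adjusted p = 0.000133), so the 2 disagreed in size while both were called higher. The exon arrays gave 0 h values of 10.12, 10.00 and 10.14 and 24 h values of 9.39, 9.27 and 9.23. The groups stood apart with 0 h higher, and the change was -0.79 ± 0.0883 (limma adjusted p = 0.00172).

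Btk encodes the TEC-family kinase whose loss impairs B-cell development, and which macrophages and mast cells use too. Its single 430 probe set (1422755_at) read 8.21, 7.90 and 8.01 at 0 h and 10.42, 10.38 and 10.45 at 24 h. The 24 h arrays were the high ones, with no overlap, and the change was 2.37 ± 0.0854 (limma adjusted p = 8.99e-08). Exon values were 8.49, 8.43 and 8.39 at 0 h and 5.99, 6.09 and 6.02 at 24 h, and the 0 h arrays were high. The exon change of -2.40 ± 0.0789 (limma adjusted p = 2.5e-05) had nearly the size of the 430 change.

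Syk, the kinase that binds phosphorylated receptor chains, had 4 probe sets on the 430 arrays, and all 4 were called higher at 24 h, with log2 changes from 0.29 to 0.53. The brightest (1418261_at) read 5.59, 5.53 and 5.77 at 0 h and 6.18, 6.24 and 6.05 at 24 h. Those groups did not overlap, and the change was 0.53 ± 0.0861 (limma adjusted p = 0.000992). The other 3 lay below the median feature level of the design, 5.84, and so did the 0 h mean of the brightest, 5.63. Exon values of Syk were 3.87, 3.84 and 3.55 at 0 h and 3.56, 3.55 and 3.64 at 24 h, also below the median level, and the groups overlapped. The exon change was -0.17 with a 95% interval from -0.44 to 0.10 (limma adjusted p = 0.349), so it was not called.

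Fgr, an SRC-family kinase of monocytes and neutrophils, read 6.30, 6.31 and 6.42 at 0 h and 6.85, 6.85 and 6.68 at 24 h on its brightest 430 probe set (1419526_at). Every 24 h array exceeded every 0 h array, and the change was 0.45 ± 0.0747 (limma adjusted p = 0.0011). Its other probe set (1442804_at) changed by 0.56 ± 0.0853 (limma adjusted p = 0.000609). The exon arrays read 5.35, 4.73 and 5.38 at 0 h and 4.47, 4.76 and 4.65 at 24 h. Array 2 at 0 h fell among the 24 h values, and the change of -0.53 ± 0.198 was not called (limma adjusted p = 0.113). Without that array it was -0.74 and called (limma adjusted p = 0.0164). Removing any other single array left it uncalled, with a limma adjusted p of up to 0.268.

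Fes encodes a cytoplasmic kinase with a membrane-binding F-BAR domain, abundant in myeloid cells. On the 430 arrays its brightest probe set (1452410_a_at) read 10.86, 10.79 and 10.85 at 0 h and 10.86, 10.70 and 10.90 at 24 h. The groups overlapped, and the change of -0.01 had a 95% interval from -0.18 to 0.16 (limma adjusted p = 0.93). The other probe set (1427368_x_at) changed by -0.07 and was not called (limma adjusted p = 0.492). Fes on the exon arrays read 9.33, 9.14 and 9.23 at 0 h and 8.79, 8.82 and 8.78 at 24 h. There the 0 h arrays were all higher, and the change was -0.44 ± 0.0842 (limma adjusted p = 0.0126).

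**Figure D2:**
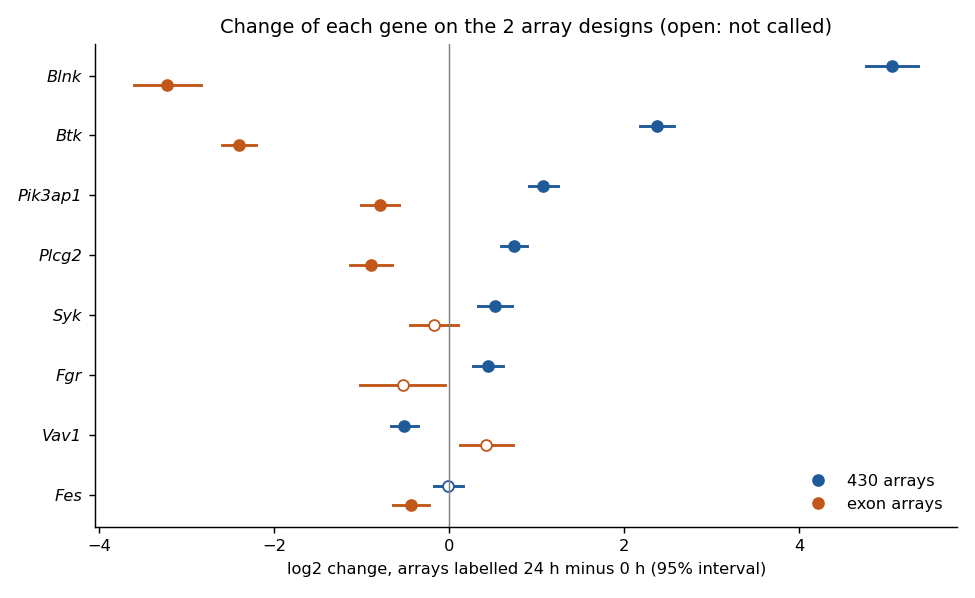
Log2 change of each gene (x axis, arrays labelled 24 h minus 0 h) with its 95% interval on the 430 arrays (blue) and exon arrays (orange); filled points were called and open points were not. Blnk and Btk lie farthest from 0 on both designs, Vav1 lies on the side of 0 opposite to the other called genes on the 430 arrays and, not called, on the exon arrays, and Fes was called on the exon arrays alone.

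Plcg2 encodes phospholipase C gamma 2, which cleaves a membrane phosphoinositide into calcium-raising messengers. Its 430 probe set (1426926_at) read 10.52, 10.50 and 10.46 at 0 h and 11.30, 11.17 and 11.26 at 24 h, without overlap. The change was 0.75 ± 0.065 (limma adjusted p = 1.83e-05). The exon values were 8.47, 8.24 and 8.35 at 0 h and 7.54, 7.49 and 7.36 at 24 h. The 0 h arrays were high there, with a change of -0.89 ± 0.0999 (limma adjusted p = 0.00173).

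Vav1 encodes a blood-cell exchange factor for RAC-type GTPases, and on the 430 arrays it moved against the other called genes. Its brightest 430 probe set (1422932_a_at) read 9.02, 9.03 and 9.02 at 0 h and 8.43, 8.51 and 8.60 at 24 h. The 0 h arrays were the high ones, with no overlap, and the change was -0.51 ± 0.068 (limma adjusted p = 0.000282). The other probe set (1440300_at) changed by -0.24 ± 0.0789 and was also called lower (limma adjusted p = 0.0325). Exon values of Vav1 were 8.67, 8.49 and 8.62 at 0 h and 9.21, 9.02 and 8.83 at 24 h. All 24 h arrays were higher, but the change of 0.43 ± 0.123 missed the threshold (limma adjusted p = 0.0519). Without array 3 at 24 h it was 0.52 and called (limma adjusted p = 0.0301). Without any other single array it was not called, with a limma adjusted p of up to 0.153.

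The change on the 430 arrays minus that on the exon arrays was tested as a contrast in 1 limma fit of all joined genes. With labels as given the difference was called for all 8 genes, where 58.0% of joined genes were called. With the exon labels exchanged it was called for 2 of 8, where 22.8% of joined genes were. The Blnk change was then larger on the 430 arrays by 1.85 ± 0.202 log2 units (SE; limma adjusted p = 3.09e-05), a size that also depends on each design's signal floor, since the low Blnk group is dim on both. The 430 change of Fes was lower than the exchanged exon change by a difference of -0.45 ± 0.107 (limma adjusted p = 0.00872). For Btk the exchanged difference was -0.03, with a 95% interval from -0.28 to 0.22 (limma adjusted p = 0.877), and for Vav1 -0.08, from -0.37 to 0.20 (limma adjusted p = 0.7). With exon values also rescaled to the spread of the 430 changes, the Btk difference was -0.39 and called (limma adjusted p = 0.0363), and 3 of 8 genes were called, where 20.5% of joined genes were.

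**Figure D3:**
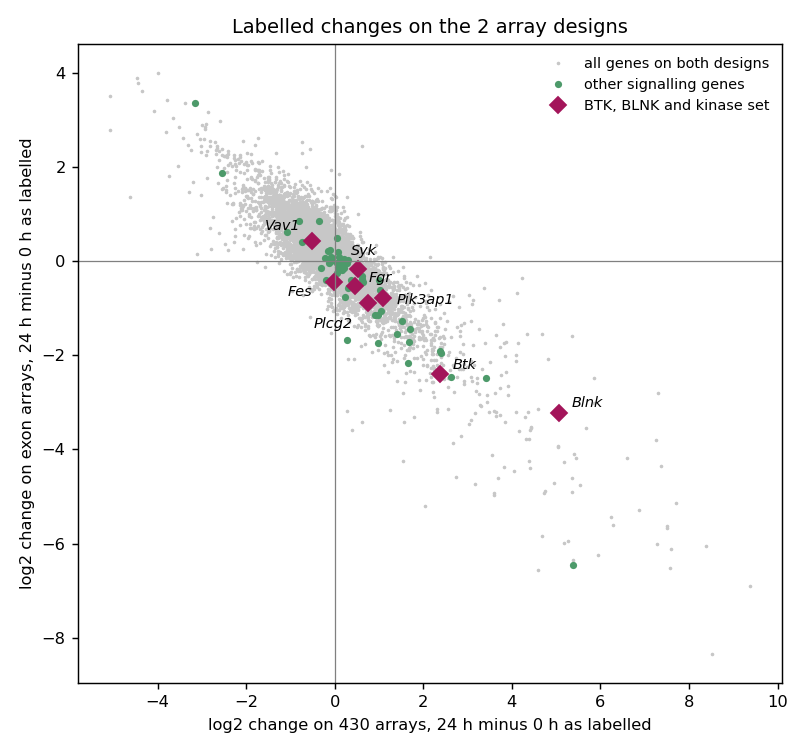
Log2 change on the 430 arrays (x axis) against that on the exon arrays (y axis), both as labelled, for all 13356 genes on both designs (grey), the other genes of the pathway (green) and the 8 genes of the set (diamonds). Most points run from upper left to lower right (r = -0.86), with Blnk and Btk at lower right and Vav1 at upper left.

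The 3 genes whose pair of changes lay nearest to that of Blnk, by Euclidean distance over the 13356 joined genes, were Kcne3, Tgfbi and Cx3cr1. Kcne3, a potassium channel subunit, changed by 4.59 (430 arrays) and -3.15 (exon arrays) (distance 0.486 log2 units). Tgfbi, a secreted matrix protein, changed by 5.67 and -3.55, and Cx3cr1, the fractalkine receptor, by 4.37 and -3.20.

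Several of these genes are used by B cells, so markers of other blood lineages were read on the same arrays. Of 7 B-cell markers measured on the 430 arrays 0 were called higher at 24 h by limma (1 at an unadjusted p under 0.05) and 2 lower, Igll1 and Vpreb1. Of 5 measured on the exon arrays 0 were called in either direction, with 0 at an unadjusted p under 0.05. The summed B-cell marker signal was 8.41 to 8.51 log2 units at 0 h and 8.30 to 8.34 at 24 h on the 430 arrays. Their levels ran from 4.12 to 6.88 there, and 5 of the 7 lay below the median feature level. Of 5 T and NK cell markers 1, Cd3d, was called higher on the 430 arrays (log2 change 0.39). Of 5 mast cell and basophil markers Tpsb2 was higher there (0.34) and Mcpt8 (-1.48) and Ms4a2 (-0.42) lower. Of 5 erythroid and megakaryocyte markers Epor (0.38), Gp9 (0.22) and Pf4 (0.22) were higher. Of all genes 26.0% were called higher there and 26.1% lower. Cd3d, Tpsb2, Gp9 and Pf4 lay below the median feature level. On the exon arrays Mcpt8 alone of these 15 was called by limma, as higher, and 2 of the 15 had an unadjusted p under 0.05. The macrophage markers had the direction of 6 of the 8 genes on the 430 arrays, Vav1 and Fes excepted, and of the 5 genes called on the exon arrays. Their summed signal was 8.46 to 8.51 at 0 h and 12.24 to 12.32 at 24 h on the 430 arrays, and 10.98 to 11.08 and 8.44 to 8.62 on the exon arrays. Their part in the changes of the set was not tested, and in these bulk samples a larger share of cells of a type and more RNA per cell cannot be told apart.

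Other genes of the same pathway moved in both directions. Their list was also chosen with earlier results of these data known, so its counts and medians are no test of the pathway. Of 58 measured on the 430 arrays 26 were called higher and 11 lower, where 26.0% and 26.1% of all genes were, with a median log2 change of 0.18 beside 0.06 over all genes. Of 57 on the exon arrays 21 were called lower and 7 higher, where 10.8% and 19.3% of all genes were, with a median of -0.15 beside 0.01. On both designs 26 of 56 were called, all 26 with opposite signs as labelled: 20 higher on the 430 arrays and lower on the exon arrays, and 6 the other way. Of all genes called on both designs 98.5% had opposite signs, so this is no particular feature of the pathway. The same shares of all genes called apply to the counts by role that follow, which cover few genes each.

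Among SRC-family kinases and their regulators 2 of 6 measured genes were called higher and 1 lower on the 430 arrays. On the exon arrays 1 of 6 was called higher and 1 lower. Blk, called higher on the 430 arrays (0.27), lay below the median feature level and was not called on the exon arrays (-0.05). Fyn, an SRC-family kinase, changed by 0.91 ± 0.166 (SE; limma adjusted p = 0.00197) and on the exon arrays by -1.14. The low Fyn group was under the median feature level on both designs. Csk, the kinase that inhibits this family, changed by -0.49 and 0.43 on the 2 designs. Of 5 relatives of BTK, SYK and FES 2 were called higher on the 430 arrays, and 1, Tec, was called lower on the exon arrays. Tec, a close relative of Btk, changed by 2.40 ± 0.0652 on the 430 arrays (limma adjusted p = 1.81e-08) and by -1.95 on the exon arrays.

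Adaptors were called higher in 9 of 17 cases and lower in 4 on the 430 arrays, and lower in 8 of 16 and higher in 2 on the exon arrays. Sla, an adaptor that lowers receptor signalling, went from 5.48 ± 0.182 to 10.86 ± 0.0336 log2 units on the 430 arrays (SD, n = 3; 41.6-fold) and was 86.9-fold lower on the exon arrays; its low group was under the median feature level on both, so these folds may understate the difference. Skap2, an adaptor of integrin signalling in macrophages, changed by 2.62 and -2.47, and Sh3bp2 by 1.52 and -1.26. Lipid enzymes and exchange factors were called higher in 6 of 13 cases and lower in 2 on the 430 arrays. On the exon arrays 2 of 13 were called higher and 5 lower. Rasgrp3, an activator of RAS, changed by 3.43 (430 arrays) and -2.49 (exon arrays). The low Rasgrp3 group was under the median feature level on both designs, so these changes may understate the difference. Pik3cg, the gamma catalytic subunit of phosphoinositide 3-kinase, changed by 1.70 and -1.44. Rasgrp2, an activator of RAP1, ran the other way at -2.56 and 1.86.

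Downstream kinases and channels had 2 of 8 called higher and 2 lower on the 430 arrays. On the exon arrays 1 of 9 was called higher and 1 lower. Prkcd, protein kinase C delta, changed by 2.37 (430 arrays) and -1.90 (exon arrays), and Map4k1, the kinase HPK1, by -1.07 and 0.61. Inhibitors were called higher in 5 of 9 cases and lower in 2 on the 430 arrays. On the exon arrays 5 of 8 were called lower and 1 higher. The phosphatase SHP-1 gene Ptpn6 changed by 1.68 and -1.73. Of the STS phosphatase pair Ubash3b changed by 1.66 and -2.17, and Ubash3a by -3.16 and 3.35 in the opposite sense. The Ubash3a arrays at 24 h spread widely on the 430 design (SD 0.705, n = 3). On the exon arrays its low group was under the median feature level.

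**Figure D4:**
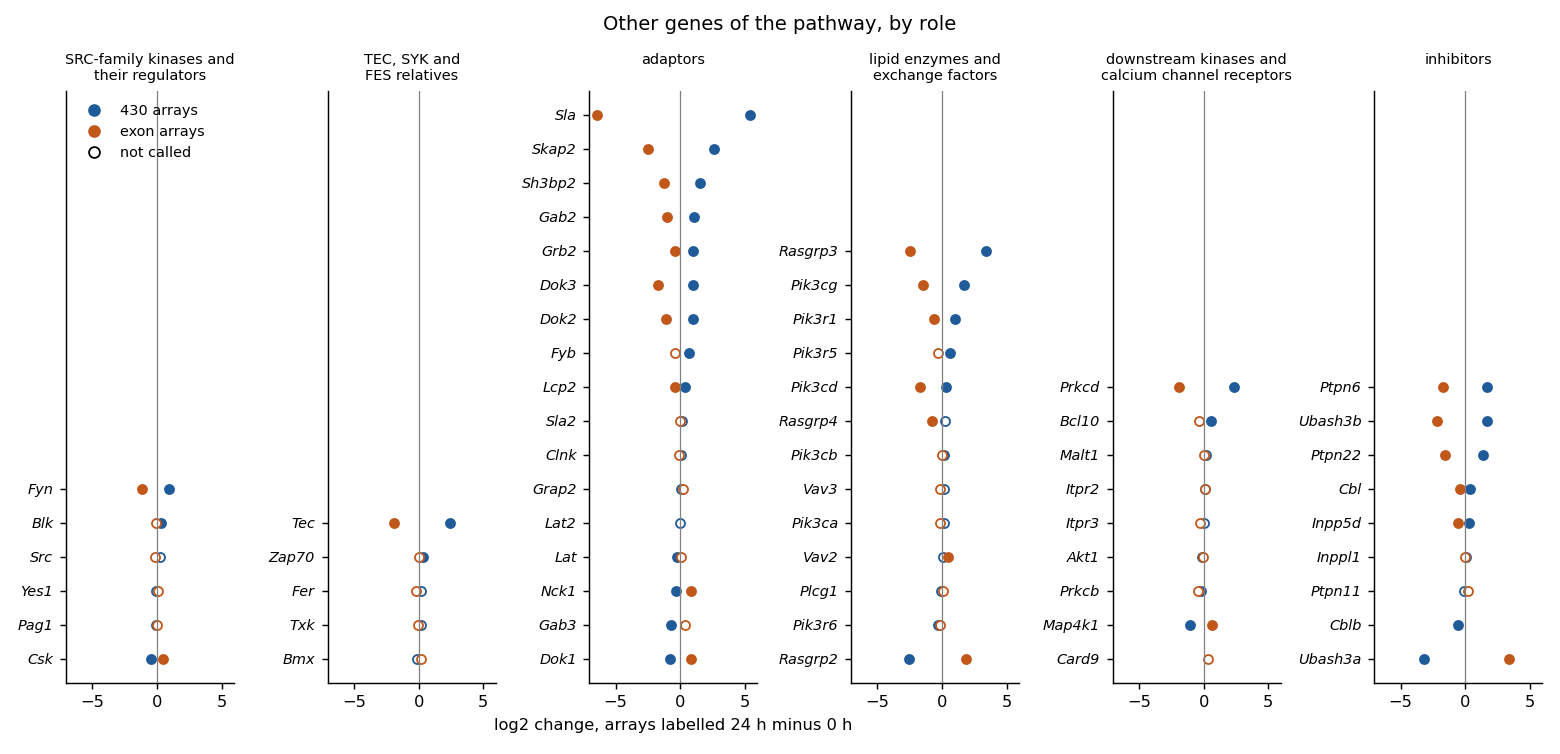
Log2 change (x axis, arrays labelled 24 h minus 0 h) of the other pathway genes grouped by role, on the 430 arrays (blue) and exon arrays (orange); open points were not called. All 26 genes called on both designs have their 2 points on opposite sides of 0, as do 98.5% of all genes called on both, with Sla the widest apart among the adaptors.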

How the data were processed

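RNA of PUER cells was measured on 12 Affymetrix arrays, 6 of each design. The deposited values are log2 signals, 1 table per design, which the authors made with Affymetrix Expression Console, per the submitters' processing notes; the summarization and normalization methods are not given in the sources used here. The notes name build mm8 for the exon arrays. Per the labels, 300 ng of RNA was used for 430 arrays and 1.5 µg, after ribosomal RNA reduction, for exon arrays; the labels describe sense-strand DNA for both, and the usual 430 target is antisense RNA, which was not tested. There is no read depth on arrays, so precision rests on the number of arrays; no detection calls entered the tests.

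After 64 control probe sets were set aside, 45037 probe sets and 23238 transcript clusters were tested two-sided with lmFit and eBayes of limma 3.58.1 (R 4.3.3). P-values were adjusted by Benjamini-Hochberg across all features of each design, and an adjusted p under 0.05 made a call. Each design was fitted alone, because the tables were made separately. Symbols came from the platform annotation, updated through Entrez identifiers to RefSeq GRCm38.p6: 34945 probe sets and 14939 clusters had 1 symbol (34741 and 14884 matched RefSeq), 932 and 989 several, and 9160 and 7310 none. A gene was represented by its single-symbol feature with the highest mean, without regard to the groups. The difference between designs was a contrast over the joined genes. The script was tested on simulated data.

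The genes of the set, the pathway list and the marker lists were chosen with earlier results of these data known. The text names the 8 genes, up to 3 genes of each pathway group with the largest 430 change among those called on both designs, and the 3 genes nearest to the member with the largest mean change. Of 64 pathway genes listed, 58 and 57 had a feature. Same-numbered arrays of the 2 conditions did not deviate together in every pair, so the numbers were not taken as pairs. No 2 arrays held identical values. Alternatives were quantile normalization, array medians, a level filter, variance models, a replicate block, each array left out, a change of at least 1, gene means, exchanged exon labels and rescaled exon values.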

Additional observations from a re-analysis of the deposited data

Results flagged for a closer look

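The change on the 430 arrays differed from that on the exon arrays, as labelled, for every one of the 8 genes in the limma contrast between designs. The 430 change minus the exon change was 8.28 log2 units for Blnk, 4.78 for Btk, 1.87 for Pik3ap1, 1.64 for Plcg2, 0.98 for Fgr, 0.70 for Syk and 0.43 for Fes, and -0.94 for Vav1. The adjusted p ran from 6.64e-14 for Btk to 0.00311 for Fes. With quantile normalization all 8 differences were called as well. Among all joined genes 58.0% were called. The labelled changes were reversed between the designs across all joined genes (r = -0.86). The difference therefore mostly joins the sizes of 2 opposite changes, and is no particular feature of these genes. With the exon labels exchanged it was called for 2 of 8, where 22.8% of joined genes were.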

How the results depend on the processing

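Under every alternative run on the 430 arrays except a minimum log2 change of 1, 7 of the 8 genes were called. With that minimum 3 of 8 genes and 15 of 58 pathway genes were called there, where 9.76% of all genes were. On the exon arrays 2 of 8 and 17 of 57 were called, where 8.66% of all genes were. Fewer genes can pass that minimum by construction. Exchanging the exon labels turned the 5 lower calls into 5 higher ones, and the 28 pathway calls to 21 higher and 7 lower. It left 2 of 8 differences between designs, where 22.8% of joined genes were called. With exon values also rescaled 3 of 8 were called, where 20.5% of joined genes were.

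Leaving out each array in turn gave 7 calls each time on the 430 arrays, 5 to 6 on the exon arrays, and 33 to 35 and 24 to 27 for the pathway list. The 430 change of Fes, not called in any setting, took the other sign with quantile normalization (0.0713) and ranged from -0.0498 to 0.0505 without single arrays. Vav1 on the exon arrays was called with array medians subtracted (limma adjusted p = 0.0444) and with gene means (0.0208). It was also called with the variance trend (0.0367) and after removal of dim features (0.0176). It was not called with quantile normalization (0.0908) or the replicate block (0.0853). Without single arrays its adjusted p ran from 0.0301 to 0.153. With gene means, the variance trend and removal of dim features the change itself was 0.43, as in the main fit. Vav1 has no further exon feature, so these settings altered the variance estimate or the features tested, and not its values. The cause of the other differences was not tested.

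With the replicate number as a block 7 of the 8 genes were called on the 430 arrays and 4 on exon arrays, where the Fes change lost its call (adjusted p = 0.0562). For the pathway list the block gave 35 and 23 calls. Correlations of same-numbered deviations ran from -0.0548 to 0.132 on the 430 arrays, and from -0.0516 to 0.00878 on the exon arrays. Offsets before taking logs did not apply to log2 values. Dim features limit what can be read for Syk and Fgr on the exon arrays, which the level filter removed.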

Other observations

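Further pathway genes, chosen after their values were seen, are given as values. Ptpn22, a phosphatase that restrains SRC-family and SYK-family kinases, changed by 1.41 (430 arrays) and -1.55 (exon arrays), called on both. The scaffold gene Gab2 changed by 1.05 and -1.06. The docking proteins of the DOK family, which dampen kinase signalling, split: Dok2 changed by 0.98 and -1.14 and Dok3 by 0.99 and -1.73, while Dok1 changed by -0.80 and 0.84, each called on both designs by limma. Pik3r1, the regulatory subunit of phosphoinositide 3-kinase, changed by 1.02 and -0.61. Pik3cd, the delta catalytic subunit, changed by 0.28 and -1.68.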
